A study of Homo sapiens with 12 samples.

Results

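The S100 genes encode small calcium-binding proteins. Of these, 10 were chosen by symbol for this account: S100A1, S100A2, S100A3, S100A4, S100A6, S100A10, S100A11, S100A13, S100A16 and S100B. They are 10 of the 56609 symbols in the count table and of the 21698 genes that passed the filter on low counts; all 10 passed it. RNA sequencing gave their levels in 12 libraries, 4 groups of 3 replicates, all from A375, a human melanoma line in long laboratory use. Wild-type cells, or cells whose MAPKAPK2 gene (the stress-activated kinase MK2) had been knocked out with CRISPR/Cas9, received JQ1 at 500 nM, or DMSO as solvent, for 48 h. JQ1 displaces the BET bromodomain proteins from acetylated chromatin, and the study asked how loss of MAPKAPK2 bears on resistance to such inhibitors. Libraries titled untreated carry DMSO in their treatment field, which was followed. All groups share the A375 background; whether the knockout line is 1 clone or a pool, and whether replicates are separate cultures, is not given in the sources used here, so p-values measure the spread between these libraries.

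S100 proteins carry a pair of EF-hands, the helix-loop-helix motif that holds calcium, and most work as dimers. On binding calcium they expose a surface that docks partner proteins such as annexins, cytoskeletal myosin or p53, and some are released from cells and signal through the receptor RAGE. S100B is the classical tissue and serum marker of melanoma, and S100A4, S100A6 and S100A13 have also been studied in melanoma progression.

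The genes lie at 2 places. By GENCODE release 29 (GRCh38), 9 of the 10 are in the S100 cluster of chromosome band 1q21, from S100A10 (chr1:151982915-151994390, minus strand) to S100A1 (chr1:153627926-153632039, plus strand), and S100B is on chromosome 21 (chr21:46598962-46605208, minus strand). The knockout target MAPKAPK2 is on the same arm, at chr1:206684944-206734283, between 53.05 and 54.69 Mb farther from the centromere. Exons of S100A1 and S100A13 overlap on opposite strands over 235 bases (7.8% of the exon bases of S100A1 and 10.6% of those of S100A13). Exons of S100A1 also overlap those of AL162258.2 on the opposite strand, over 320 bases (10.6% of S100A1). AL162258.2 averaged 0.527 CPM. The libraries were strand-specific, but whether the counting used the strand is not given in the sources used here. The values of S100A1 and S100A13 are therefore less certain.

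The start regions of the 3 genes that rose most with JQ1 in both genotypes and of the 1 that fell are shown because these genes share the 1q21 cluster and moved in different directions. Each window runs from 250 bases before to 50 after a RefSeq start site (GRCh38.p14), written 5′ to 3′ on the gene's own strand. Windows were found for 9 of the 10 genes, all but S100B. Capitals mark matches to TATAAA (the TATA box), GGGCGG (the core of an SP1 site), CACGTG (an E-box), TGANTCA (an AP-1 site) or GGGANTTCC (an NF-kappaB site), searched on both strands with overlaps allowed. S100A6 is at chr1:153535942-153536241 (minus strand), S100A10 at chr1:151993810-151994109 (minus), S100A4 at chr1:153545757-153546056 (minus) and S100A1 at chr1:153628184-153628483 (plus).
S100A6: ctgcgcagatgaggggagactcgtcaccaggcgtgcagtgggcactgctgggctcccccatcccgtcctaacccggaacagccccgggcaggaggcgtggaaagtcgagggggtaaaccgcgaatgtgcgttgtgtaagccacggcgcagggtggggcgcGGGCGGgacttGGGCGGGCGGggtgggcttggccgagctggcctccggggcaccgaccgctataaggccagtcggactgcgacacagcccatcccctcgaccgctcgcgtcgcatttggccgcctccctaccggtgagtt
S100A10: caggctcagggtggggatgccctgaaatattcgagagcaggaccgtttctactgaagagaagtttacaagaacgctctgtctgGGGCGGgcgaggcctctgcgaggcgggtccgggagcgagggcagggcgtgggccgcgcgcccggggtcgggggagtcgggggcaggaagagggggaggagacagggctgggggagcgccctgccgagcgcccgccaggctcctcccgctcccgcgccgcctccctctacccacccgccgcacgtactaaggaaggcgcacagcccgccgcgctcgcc
S100A4: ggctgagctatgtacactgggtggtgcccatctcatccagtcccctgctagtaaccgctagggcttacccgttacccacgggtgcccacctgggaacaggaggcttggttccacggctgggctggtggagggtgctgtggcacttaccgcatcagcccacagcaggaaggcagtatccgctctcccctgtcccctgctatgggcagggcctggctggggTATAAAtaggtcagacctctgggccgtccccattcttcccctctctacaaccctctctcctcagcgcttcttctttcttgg
S100A1: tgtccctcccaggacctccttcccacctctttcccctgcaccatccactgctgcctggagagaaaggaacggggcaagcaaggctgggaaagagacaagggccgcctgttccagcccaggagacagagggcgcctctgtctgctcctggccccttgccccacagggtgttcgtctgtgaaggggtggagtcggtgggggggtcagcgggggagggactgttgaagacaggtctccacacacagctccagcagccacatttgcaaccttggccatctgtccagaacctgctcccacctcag

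The windows of S100A6 and S100A10 were rich in CpG, with 31 and 32 of these dinucleotides against a median of 14 over 35116 RefSeq windows of the same length. S100A4 had 8 CpG and S100A1 had 6. Among the other genes with windows, S100A16 and S100A13 rose, with 3 and 8 CpG for S100A16 and 19, 11 and 12 for S100A13. S100A11, S100A2 and S100A3 did not pass, with 22 for S100A11, 5 and 4 for S100A2 and 5 for S100A3. A link between CpG number and the JQ1 response was not tested. The S100A6 window held 3 GGGCGG matches, 2 of them overlapping, and the S100A10 window 1; 45% of all windows hold this motif. A TATAAA match stood 31 bases before the start of S100A4, and 11.5% of all windows hold one. No match to any of the 5 motifs was found in the S100A1 window. CACGTG (in 7.26% of all windows) and GGGANTTCC (1.85%) had no match in the 13 windows of the 9 genes, and TGANTCA (7.71%) matched in 1 window each of S100A2 and S100A3. A match is a description of letters and does not show that a factor binds there.

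Depth ran from 25316899 to 34594295 estimated counts per library. The library of knockout JQ1 replicate 3 stood apart: its chi-square per degree of freedom to its nearest replicate was 23.8, against 3.21 to 6.997 for the other 11, and 4 abundant noncoding RNAs took 14.6% of its counts, against 9.42% to 12.3% elsewhere. The targeted gene, MAPKAPK2, averaged 89.6 ± 2.20 CPM (counts per 1000000 of the TMM-scaled library) without JQ1 and 117 ± 4.31 CPM with it in wild type, and 12.4 ± 1.15 and 14.4 ± 1.61 CPM in the knockout (SD, n = 3), lower in every knockout library. Of 8 melanocyte lineage markers, 5 passed the low-count filter; SOX10 averaged 500.2 CPM and MITF 35.4 CPM over the libraries, while the pigment gene TYR averaged 0.0592 CPM. Summed levels of that list, most of which SOX10 made up, ran from 442 to 515 CPM in DMSO and from 526 to 731 CPM in JQ1. With JQ1, 2 of its 5 tested genes rose in each genotype (SOX10 and PMEL, the latter at a mean of 0.780 CPM), PAX3 fell, and MITF did not pass. Summed markers of other cells were low: 4.07 to 7.23 CPM for 7 keratinocyte genes (KRT1 and KRTDAP at 0). With JQ1, the sum of 4 fibroblast genes went from 12.8 to 17.4 CPM down to 3.29 to 5.75 CPM. PDGFRB had the highest mean of them, at 6.11 CPM, and 4 passed as lower in wild type but 2 in knockout. The sum of 5 leukocyte genes went from 2.61 to 3.26 CPM down to 1.07 to 1.41 CPM. LYZ, the 1 leukocyte gene tested, made up most of it. The part of these markers in the S100 results was not tested.

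Scaled by transcript length, S100A6 was the most abundant of the 10 in every group. In wild-type DMSO it stood at 1010 ± 41.4 CPM per kb, the 68th highest of 14047 protein-coding genes. The order below it was S100A13 (229 ± 19.2 CPM per kb), S100A4 (155 ± 11.5), S100A16 (146 ± 3.87), S100A10 (99.6 ± 6.36), S100A11 (87.5 ± 2.23), S100A1 (76.4 ± 5.91), S100B (33.4 ± 1.45), S100A3 (13.2 ± 0.815) and S100A2 (12.4 ± 1.53; SD, n = 3 each). Replicates of S100A4 and S100A16 overlapped, as did those of S100A3 and S100A2; the other neighbours in this order did not. Of 11 other S100 genes, S100A5 alone passed the low-count filter, at 0.965 CPM. S100A8 and S100A9, which together form the calprotectin of myeloid cells, had 0 counts in all 12 libraries, which allows up to 3 counts in each.

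**Figure D1:**
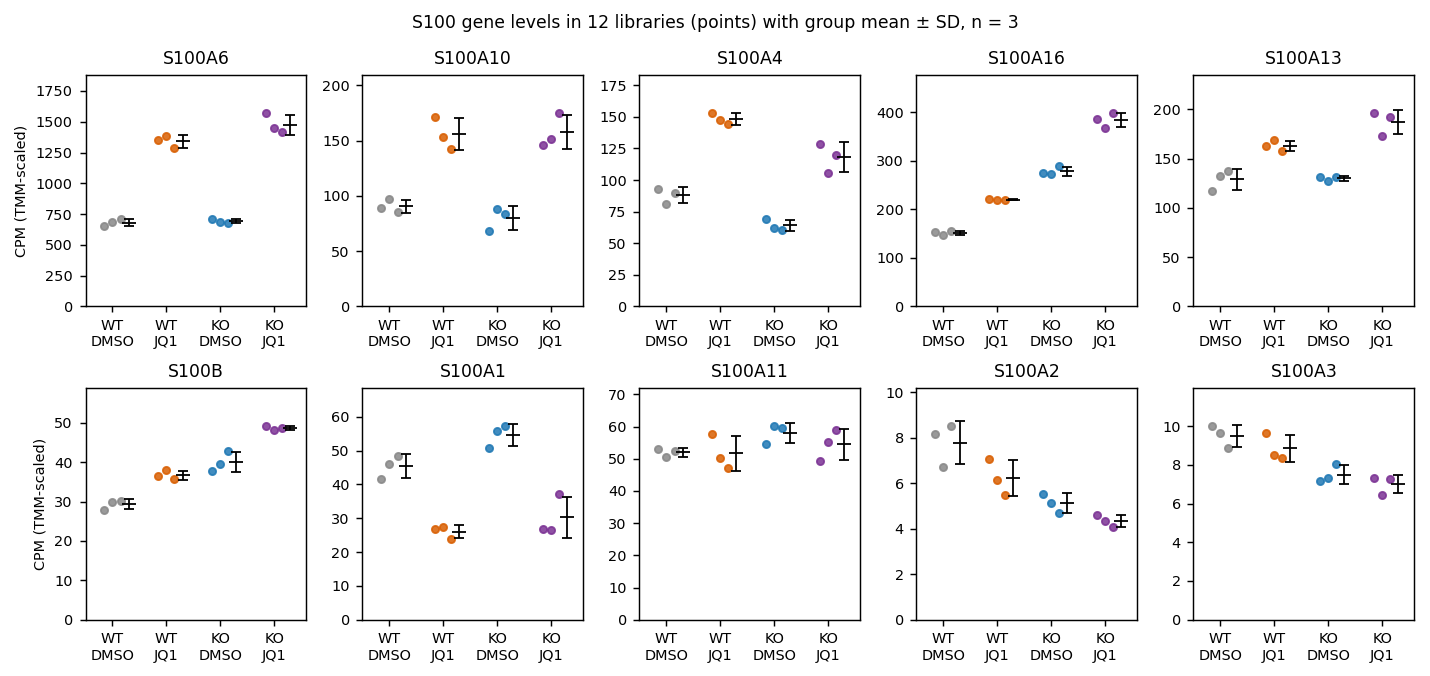
Levels of the 10 S100 genes in CPM (vertical axes, from 0, 1 scale per gene) in wild-type (WT) and knockout (KO) cells with DMSO or JQ1; points are libraries, bars the mean ± SD of 3. In both genotypes the JQ1 libraries of S100A6, S100A10, S100A4, S100A16, S100A13 and S100B lie above the DMSO libraries, and those of S100A1 lie below them.

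The first comparison set JQ1 against DMSO in wild type. Of the 10 genes, 6 rose (S100A6, S100A10, S100A4, S100A16, S100A13 and S100B), S100A1 fell, and S100A2, S100A3 and S100A11 did not pass an adjusted p of 0.05 (edgeR's quasi-likelihood test, Benjamini-Hochberg adjustment over all 21698 genes). Over all tested genes 33.1% were called, 16.9% higher and 16.2% lower (3665 and 3522 genes; 2298 and 5368 with library totals as the only scaling). The median log2 fold change of the 10 was 0.33, against -0.03 over all genes. The genes were proposed with earlier results of these data in view, so this count is a description. Each of the 10 averaged 5.86 CPM or more, while about 11250 of the 21698 tested genes averaged at least 5 CPM. Shares over all tested genes, here and below, are thus not taken at matched levels. In knockout cells the same 6 genes rose and S100A1 fell, against 34.4% of all genes called (16.7% higher and 17.8% lower; 3616 and 3856 genes, or 2409 and 5250 with library totals as the only scaling), with medians of 0.37 and -0.00. Replicates of the compared groups did not overlap for 7 of the 10 genes in wild type and 8 in knockout, where the share over all genes was 50.4% and 42.3%. In bulk RNA, a change in how many cells express a gene and a change in RNA per cell cannot be told apart.

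S100A6 (calcyclin), which binds the ubiquitin-ligase adaptor CACYBP and several annexins, had the largest rise of the 10 in both genotypes. It was at 651, 681 and 707 CPM in wild-type DMSO, 1348, 1388 and 1283 CPM in wild-type JQ1, 712, 689 and 678 CPM in knockout DMSO, and 1569, 1445 and 1417 CPM in knockout JQ1. All 6 JQ1 libraries lay above all 6 DMSO libraries. The rise was 1.97-fold in wild type (log2 fold change 0.98, SE 0.05, adjusted p 6.16e-09 by edgeR) and 2.13-fold in knockout (1.09, SE 0.05, adjusted p 1.72e-09). Its length-scaled level moved from 68th to 20th among protein-coding genes in each genotype. Its share of the summed CPM of the 10 genes was 52.4% to 53.4% in wild-type DMSO libraries and 61.5% to 62.9% in wild-type JQ1 libraries. The noncoding gene BX470102.1, whose exons overlap 23 bases of S100A6 on the opposite strand, rose as well (0.89 in wild type and 1.01 in knockout on the log2 scale, adjusted p 3.50e-05 and 1.01e-05 by edgeR) from a mean level of 6.01 CPM; its part in the S100A6 counts was not tested.

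S100A10 (p11) does not need calcium; it pairs with annexin A2 at the plasma membrane, where the complex binds plasminogen and its activator. Its level was 89.0, 97.0 and 85.8 CPM in wild-type DMSO, 172, 154 and 143 CPM in wild-type JQ1, 68.3, 88.6 and 83.6 CPM in knockout DMSO, and 146, 152 and 175 CPM in knockout JQ1. Every JQ1 library was higher than every DMSO library. The change was 1.72-fold in wild type (log2 0.78, SE 0.10, adjusted p 2.63e-05 by edgeR) and 1.97-fold in knockout (log2 0.98, SE 0.10, adjusted p 3.02e-06).

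S100A4 (metastasin), which binds non-muscle myosin heavy chain IIA and is known for promoting cell motility, also rose. Its libraries held 93.3, 80.7 and 90.1 CPM in wild-type DMSO, 153, 148 and 144 CPM in wild-type JQ1, 69.2, 62.2 and 60.7 CPM in knockout DMSO, and 129, 106 and 120 CPM in knockout JQ1. The 4 groups did not overlap, with knockout DMSO lowest and wild-type JQ1 highest. The drug effect was 1.68-fold in wild type (log2 0.75, SE 0.08, adjusted p 4.31e-06 by edgeR) and 1.84-fold in knockout (log2 0.88, SE 0.08, adjusted p 8.51e-07).

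S100A1, a regulator of calcium release and contraction in heart and skeletal muscle that melanoma cells also express, was the 1 gene of the 10 that fell with JQ1 past the threshold; with library totals as the only scaling S100A2 fell too in wild type. S100A1 was at 41.6, 46.0 and 48.5 CPM in wild-type DMSO, 26.9, 27.3 and 23.8 CPM in wild-type JQ1, 50.9, 55.9 and 57.2 CPM in knockout DMSO, and 26.9, 26.7 and 37.1 CPM in knockout JQ1. The value of 37.1 CPM belongs to knockout JQ1 replicate 3, the library that stood apart, and still lay below every DMSO library. JQ1 lowered the gene to 0.572 of the DMSO level in wild type (log2 -0.81, SE 0.11, adjusted p 6.95e-05 by edgeR) and to 0.555 in knockout (log2 -0.85, SE 0.11, adjusted p 3.59e-05). Without knockout JQ1 replicate 3 the knockout value was a log2 fold change of -1.03, the lowest with any library left out.

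S100A13, the partner with which the growth factor FGF1 leaves the cell, overlaps S100A1 on the other strand and moved in the opposite direction. It ranged from 117 to 138 CPM in wild-type DMSO and from 157 to 168 CPM in wild-type JQ1, and from 127 to 132 CPM and 173 to 196 CPM in knockout. The groups did not overlap in either genotype. The rise was 1.26-fold in wild type (log2 0.34, SE 0.07, adjusted p 0.00121 by edgeR) and 1.44-fold in knockout (log2 0.53, SE 0.07, adjusted p 2.36e-05). Exons of AL162258.1, a gene on the same strand, overlap 24.2% of the exon bases of S100A13. AL162258.1 was at 1.43 CPM and did not pass (log2 0.02 in wild type and 0.12 in knockout, adjusted p 0.966 and 0.790 by edgeR).

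S100A16, a widely expressed member of the family, was nearly constant within groups. It stood at 153, 147 and 155 CPM in wild-type DMSO, 220, 220 and 219 CPM in wild-type JQ1, 274, 272 and 289 CPM in knockout DMSO, and 386, 368 and 398 CPM in knockout JQ1. The 4 groups did not overlap. JQ1 raised it 1.45-fold in wild type (log2 0.54, SE 0.05, adjusted p 1.30e-06 by edgeR) and 1.38-fold in knockout (log2 0.46, SE 0.05, adjusted p 4.08e-06).

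S100B, the melanoma marker, held 27.8, 29.9 and 30.2 CPM in wild-type DMSO, 36.4, 37.9 and 35.6 CPM in wild-type JQ1, 37.8, 39.5 and 42.7 CPM in knockout DMSO, and 49.1, 48.3 and 48.8 CPM in knockout JQ1. Within each genotype the JQ1 libraries were all higher. The rise was 1.25-fold in wild type (log2 0.32, SE 0.06, adjusted p 0.00129 by edgeR) and 1.22-fold in knockout (log2 0.28, SE 0.06, adjusted p 0.00283). The knockout call was lost with library totals as the only scaling (log2 0.17, adjusted p 0.0559), which shifted the median of all genes by -0.12 in that contrast and by -0.13 in wild type. SOX10, the neural crest factor that melanoma cells keep, rose by log2 0.37 in wild type (adjusted p 0.0189) and 0.36 in knockout (adjusted p 0.0190). PAX3 of the same marker list fell by 0.31 and by 0.43 on the log2 scale (adjusted p 0.00665 and 6.47e-04), and MITF was at log2 -0.13 and 0.08 (adjusted p 0.220 and 0.499). Their part in the S100B values was not tested.

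The other 3 genes did not pass in either genotype. S100A11, a partner of annexin A1 in membrane repair and growth control, spanned 47.1 to 60.1 CPM over all 12 libraries, with log2 fold changes of -0.01 in wild type (95% interval -0.18 to 0.17, adjusted p 0.954 by edgeR) and -0.09 in knockout (-0.26 to 0.09, adjusted p 0.453). S100A2, best known from epithelial cells, was between 4.08 and 8.49 CPM, with log2 fold changes of -0.33 in wild type (95% interval -0.60 to -0.06, adjusted p 0.0614) and -0.24 in knockout (-0.53 to 0.05, adjusted p 0.203). The wild-type value passed without wild-type DMSO replicate 2 (adjusted p 0.0293) or wild-type JQ1 replicate 1 (0.0360), with library totals as the only scaling (0.0104), and with the stricter filter of 1 CPM in 6 libraries (0.0372). S100A3, known from the hair cuticle, was between 6.45 and 9.98 CPM, with log2 fold changes of -0.10 in both genotypes (adjusted p 0.493 and 0.526).

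**Figure D2:**
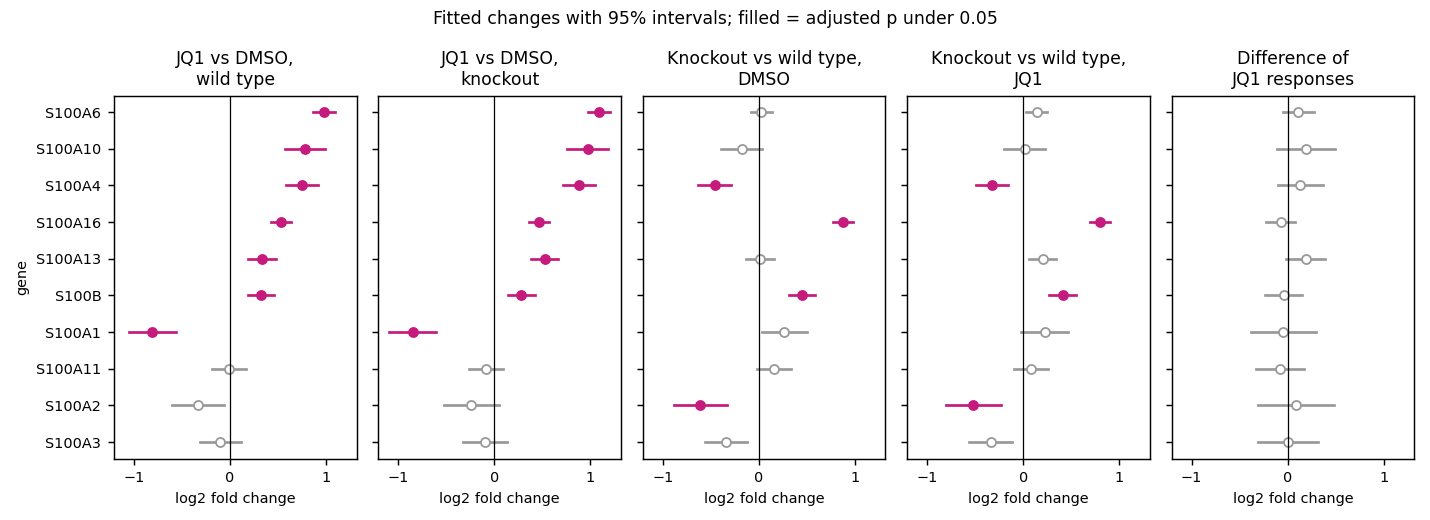
Fitted log2 fold changes (horizontal axes) of the 10 genes in the 4 comparisons and in the difference of the JQ1 responses; bars are 95% intervals and filled points passed an adjusted p of 0.05. S100A16 and S100B are filled on the right of 0, and S100A4 and S100A2 on the left, in both knockout panels, and no point of the last panel is filled.

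The knockout was then compared with wild type, to ask which S100 genes differed between the lines. Loss of MAPKAPK2 and other differences between the knockout and wild-type lines cannot be told apart in this design. In DMSO, S100A16 and S100B were higher and S100A4 and S100A2 lower in knockout, 4 of 10 genes, where 7.92% of all tested genes were called (3.47% higher and 4.44% lower; 754 and 964 genes, or 516 and 1158 with library totals as the only scaling). Under JQ1 these 4 genes were called again with the same signs, against 8.57% of all genes (3.01% higher and 5.56% lower). Replicates of the compared groups did not overlap for 7 of the 10 genes in each treatment, where the share over all genes was 29.6% in DMSO and 23.1% under JQ1. The median log2 fold change of the 10 was 0.02 in DMSO and 0.11 under JQ1, against -0.00 over all genes in each. The count under JQ1 was 2 (S100A16 and S100B) without replicate 1 or without replicate 2 of wild-type JQ1, and when only the 6 libraries compared were fitted.

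S100A16 differed most. From the levels given above, knockout was 1.84-fold higher in DMSO (log2 0.88, SE 0.05, adjusted p 4.49e-08 by edgeR) and 1.75-fold higher under JQ1 (log2 0.80, SE 0.05, adjusted p 9.00e-08). Only 285 of the 21698 tested genes had a more positive fitted change in DMSO, and 535 under JQ1. With any 1 library left out, the log2 difference stayed between 0.85 and 0.91 in DMSO and between 0.78 and 0.83 under JQ1.

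S100B, on another chromosome, was 1.37-fold higher in knockout in DMSO (log2 0.45, SE 0.06, adjusted p 4.03e-04 by edgeR) and 1.33-fold higher under JQ1 (log2 0.41, SE 0.06, adjusted p 7.56e-04). Its 3 knockout libraries lay above its 3 wild-type libraries in each treatment. Beside it, MITF, the melanocyte master regulator, was lower in knockout (log2 -0.58, adjusted p 3.23e-04 in DMSO; log2 -0.37, adjusted p 0.0102 under JQ1), while SOX10 was at log2 0.00 in both (adjusted p 0.990 and 0.999). Over the 12 libraries the log2 CPM of S100B and S100A16 had a Pearson r of 0.98, the highest of the 45 pairs of members; these points share libraries and group differences.

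S100A4 was at 0.728 of the wild-type level in knockout DMSO (log2 -0.46, SE 0.08, adjusted p 0.00170 by edgeR) and at 0.798 under JQ1 (log2 -0.33, SE 0.08, adjusted p 0.0161). The call under JQ1 was lost without replicate 2 of knockout JQ1 (adjusted p 0.0669), without replicate 1 (0.0693) or 2 (0.0550) of wild-type JQ1, and with only the groups compared in the fit (0.0531).

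S100A2 had 6.69 to 8.49 CPM in wild-type DMSO against 4.67 to 5.55 CPM in knockout DMSO, and 5.47 to 7.07 against 4.08 to 4.61 CPM under JQ1. The groups did not overlap in either treatment. Knockout was at 0.656 of wild type in DMSO (log2 -0.61, SE 0.13, adjusted p 0.00773 by edgeR) and at 0.698 under JQ1 (log2 -0.52, SE 0.13, adjusted p 0.0253). The DMSO call was lost without knockout DMSO replicate 3 (adjusted p 0.0515). Under JQ1 it was lost without replicate 2 (0.0624) or 3 (0.0584) of knockout JQ1, without replicate 1 (0.121) or 2 (0.0660) of wild-type JQ1, and with only the groups compared in the fit (0.0758).

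S100A3, next to S100A4 in the cluster, had knockout values below all wild-type values in both treatments and missed the threshold narrowly (log2 -0.34 in each, adjusted p 0.0561 in DMSO and 0.0593 under JQ1 by edgeR). It passed in DMSO without knockout JQ1 replicate 3 (adjusted p 0.0383), a library outside that contrast that enters through the shared spread, with library totals as the only scaling (0.0263), with the stricter filter (0.0418) and with only the groups compared (0.0459). Under JQ1 it passed with library totals as the only scaling (0.0342), with the authors' factors as offsets (0.0281) and with limma on the authors' signal (0.0212). For S100A1 the knockout difference was log2 0.27 in DMSO (95% interval 0.03 to 0.50, adjusted p 0.185), and it passed without knockout JQ1 replicate 3 (0.0193) and with only the groups compared (0.0206). S100A13 under JQ1 was at log2 0.20 (0.06 to 0.34, adjusted p 0.0787) and S100A6 at 0.14 (0.03 to 0.25, adjusted p 0.126). The S100A6 difference passed without knockout JQ1 replicate 3 (0.0454), and that of S100A13 passed without knockout JQ1 replicate 2 (0.0379), with DESeq2 (0.0388) and with the stricter filter (0.0462). S100A10 and S100A11 did not pass in either treatment, with log2 values from -0.18 to 0.16.

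Neighbouring S100A genes took opposite signs in the knockout: S100A16 was higher, while S100A2 and S100A4 of the same cluster were lower. The arm of chromosome 1 that holds them was examined because genes distal to MAPKAPK2 were often lower in knockout. Among 301 tested genes distal to MAPKAPK2, 42.9% were called lower in DMSO and none higher, with a median log2 fold change of -0.39. Between S100A1 and MAPKAPK2, 483 genes had a median of 0.00 in DMSO, with 5.59% called lower and 4.35% higher. Over all genes with a position, 4.48% and 3.49% were. Under JQ1 the shares were 6.63% and 2.28%, beside 5.64% and 3.02%. These shares pool the whole stretch. Within the last few Mb before MAPKAPK2, lower calls in DMSO outnumbered higher ones. NFASC, at -1.86 Mb from the MAPKAPK2 start, was lower (log2 -1.67, adjusted p 9.03e-05 by edgeR). EIF2D, at -0.114 Mb, was higher (log2 0.25, adjusted p 0.0174). Both were named after their values were seen. Within the S100 interval, 13 other tested genes had 1 call in DMSO and 1 under JQ1, both SPRR2D, a cornified envelope gene (log2 1.22, adjusted p 9.67e-05 in DMSO; log2 1.12, adjusted p 1.01e-04 under JQ1 by edgeR), named after its values were seen.

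**Figure D3:**
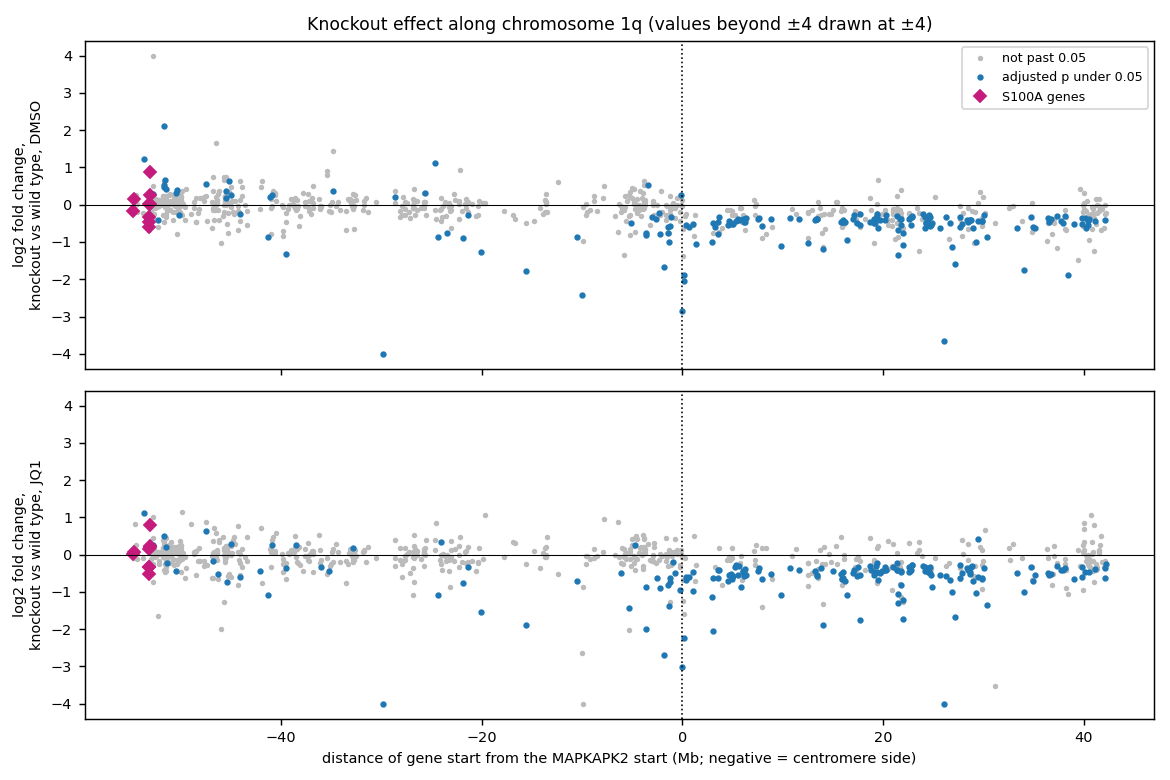
Log2 fold change of knockout against wild type (vertical axes, DMSO above, JQ1 below) for tested genes from S100A10 to the end of chromosome 1, by distance of the gene start from that of MAPKAPK2 in Mb. The 9 S100A genes (diamonds) lie on both sides of 0 53.05 Mb or more on the centromere side, while called genes distal to MAPKAPK2 are nearly all below 0.

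Whether the JQ1 response of the S100 genes differed with genotype was tested by the interaction. None of the 10 passed with edgeR or with DESeq2, and 0 had an unadjusted p under 0.05 with edgeR, where 0.134% of all genes were called and 8.37% had an unadjusted p under 0.05. The largest difference in favour of knockout was that of S100A10 (log2 0.19, 95% interval -0.11 to 0.49, adjusted p 0.759), followed by S100A13 (0.19, -0.01 to 0.39, adjusted p 0.621). The most negative was that of S100A11 (-0.08, -0.33 to 0.17, adjusted p 0.907). Intervals were narrowest for S100A16 (-0.22 to 0.08) and S100A6 (-0.05 to 0.27). Across the 10 genes, which are not independent replicates, the JQ1 responses of the genotypes, which share no libraries, had a Pearson r of 0.99, and all 10 had the same sign. Likewise, the knockout effects in DMSO and under JQ1, which share no libraries, had an r of 0.98, and 9 of 10 had the same sign; S100A10 was the exception (-0.18 and 0.01).

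The summed level of the 10 genes combined both factors. It was 1244, 1281 and 1324 CPM in wild-type DMSO, 1411, 1407 and 1416 CPM in knockout DMSO, 2193, 2208 and 2067 CPM in wild-type JQ1, and 2563, 2385 and 2458 CPM in knockout JQ1. The 4 groups did not overlap, and S100A6 made up between 47.9% and 62.9% of each sum. Between genotypes in DMSO, S100A16 moved most in CPM, from a mean of 152 in wild type to 279 in knockout. S100A6 went from 680 to 693 CPM. S100A2, S100A3, S100A4 and S100A10 had lower means in knockout DMSO, so the higher sum is not a rise of all 10 genes.

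Partners and receptors of S100 proteins were described from a list of 30 genes, of which 27 were tested. With JQ1, 10 rose and 7 fell in wild type, and 8 rose and 9 fell in knockout, with median log2 fold changes of 0.09 and -0.08 (-0.03 and -0.00 over all genes). That is 63% of the list called in each genotype, where 33.1% and 34.4% of all tested genes were called. ANXA2, the annexin bound by S100A10, rose from 319 ± 11.5 to 637 ± 20.3 CPM in wild type (log2 1.00, SE 0.05, adjusted p 4.51e-09 by edgeR) and from 326 ± 6.20 to 612 ± 33.0 CPM in knockout (log2 0.91, SE 0.05, adjusted p 8.52e-09; SD, n = 3). PLAT, the tissue plasminogen activator that binds that complex, rose by log2 0.87 in wild type and 0.78 in knockout (adjusted p 7.90e-09 and 1.66e-08). PGM1, a phosphoglucomutase that S100 proteins can modulate, rose by 0.93 and 0.95 (adjusted p 5.59e-08 and 3.34e-08). ANXA1, the annexin bound by S100A11 and named after its values were seen, fell by 0.73 on the log2 scale in wild type and by 1.05 in knockout (adjusted p 4.07e-05 and 1.26e-06).

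Between knockout and wild type in DMSO, PLAT was the 1 partner gene of 27 that passed (3.7%, against 7.92% of all tested genes; log2 0.30, SE 0.05, adjusted p 0.00109 by edgeR). Under JQ1, 2 were higher and 3 lower (18.5%, against 8.57% of all tested genes). SYT1, a vesicle calcium sensor that takes part with S100A13 in FGF1 release, was lower (log2 -0.64, SE 0.11, adjusted p 0.00126). FGF1 was higher, at 2.93 ± 0.301 CPM in knockout JQ1 against 1.79 ± 0.283 CPM in wild-type JQ1 (log2 0.70, SE 0.16, adjusted p 0.0128 by edgeR, SD, n = 3). Both FGF1 levels lay below those in DMSO, 6.05 ± 0.722 CPM in knockout and 5.53 ± 0.460 CPM in wild type. PLAT was higher under JQ1 by log2 0.21 (adjusted p 0.0123). AGER, the gene of RAGE, averaged 0.984 CPM.

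Other EF-hand proteins, 28 genes including calpains and myosin light chains, were all tested. With JQ1, 11 rose and 4 fell in wild type (median log2 0.17), and 14 rose and 4 fell in knockout (median 0.22). These are 53.6% and 64.3% of the list, beside 33.1% and 34.4% of all tested genes. MYL6, the non-muscle essential light chain of myosin, rose by log2 0.72 and 0.91 (adjusted p 5.94e-08 and 4.01e-09 by edgeR). MYL9, a regulatory light chain of contractile cells, went from 3.19 ± 0.142 to 0.363 ± 0.105 CPM in wild type and from 2.79 ± 0.392 to 0.448 ± 0.0581 CPM in knockout (log2 -3.14 and -2.63, adjusted p 7.31e-08 and 3.40e-07; SD, n = 3). In the knockout comparisons 4 of 28 passed in DMSO (3 higher and 1 lower) and 6 under JQ1 (5 higher and 1 lower), which is 14.3% and 21.4%, beside 7.92% and 8.57% of all tested genes. SRI, the sorcin of calcium release, was higher (log2 0.49 in DMSO and 0.30 under JQ1, adjusted p 2.40e-04 and 0.0112), and so were CHP1, a calcineurin-like regulator (log2 0.23 and 0.21, adjusted p 0.00981 and 0.0182), and CETN2, a centrin (log2 0.34 and 0.32, adjusted p 0.0102 and 0.0113). CAPN2, a calpain subunit whose gene lies distal to MAPKAPK2, was lower (log2 -0.38 and -0.49, adjusted p 3.73e-04 and 3.97e-05).

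Genes flanking the S100 cluster were described from a list of 20 on both sides, of which 17 were tested. With JQ1, 5 rose and 3 fell in wild type, and 3 rose and 5 fell in knockout (median log2 0.07 and 0.02), 47.1% in each genotype beside 33.1% and 34.4% of all tested genes. SNAPIN, a vesicle trafficking adaptor, rose by log2 0.58 and 0.60 (adjusted p 3.33e-06 and 2.10e-06 by edgeR), TUFT1, first known from tooth enamel, rose by 0.85 and 0.98 (adjusted p 6.35e-06 and 1.65e-06), and THEM4, a thioesterase next to S100A10, fell by 0.85 in wild type and by 0.60 in knockout (adjusted p 3.14e-06 and 6.56e-05). In knockout against wild type, MRPL9, a mitochondrial ribosome gene, was higher (log2 0.22, adjusted p 0.0385) and CGN, a tight junction gene at 0.485 CPM, lower (log2 -1.55, adjusted p 0.0468) in DMSO, 11.8% of the list beside 7.92% of all tested genes. None of the 17 passed under JQ1 with edgeR, and 5 had an unadjusted p under 0.05, as did 20.7% of all tested genes; S100A16, S100A4 and S100A2 between them did pass there.

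**Figure D4:**
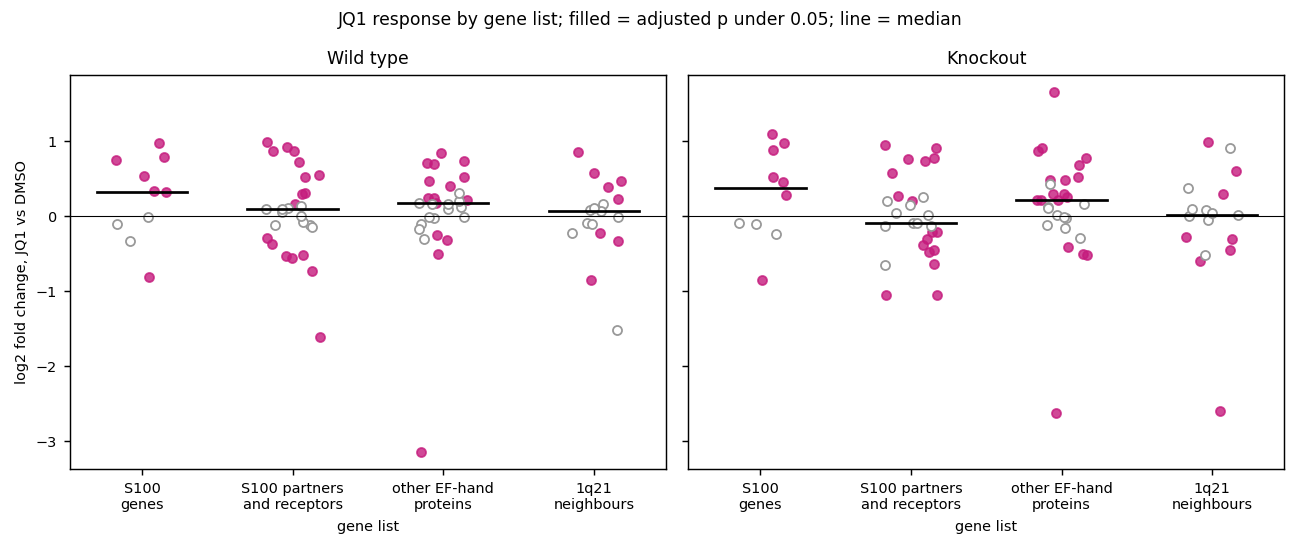
Log2 fold change with JQ1 (vertical axis) in wild type (left) and knockout (right) for the 10 S100 genes, 27 partners and receptors, 28 other EF-hand genes and 17 flanking genes of 1q21; filled points passed an adjusted p of 0.05 and lines are medians. The S100 medians are 0.33 and 0.37, and the lowest filled point in each panel is MYL9.

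Across the 12 libraries, the genes whose log2 CPM followed each member most closely were found among 11250 genes of at least 5 CPM, as a description. S100A6 was most like FBN1 and RHOC (Pearson r 0.99 each), S100A10 like C1orf226 and CCND3 (0.99 each), and S100A4 like BNIP3 (0.99) and SNORD3B-2 (0.98). S100A1 was most like ZCCHC3 (0.99) and PALM (0.98), S100A13 like NDUFB6 (0.99) and PTMA (0.98), S100A16 like GABARAP (0.99) and ILK (0.98), and S100B like HLA-DMA and CAPZB (0.98 each). S100A2 was most like TFB2M and PAQR5 (0.94 each), S100A3 like TAF5L and FAM89A (0.94 each) and S100A11 like CNPPD1 (0.93) and CERS1 (0.89). The height of r depends on how far the groups of a gene lie apart and on its counts. These values therefore do not rank the members. All of these points share the same libraries and group differences.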

How the data were processed

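RNA was measured in 12 libraries: the kits removed ribosomal RNA and kept strand, per the labels' protocols. The submitters' processing notes name Trim Galore, cutadapt, FastQC, MultiQC, kallisto, DESeq2 and the build GRCh38.p10; their roles, versions and the annotation are not given in the sources used here. The authors deposited estimated counts per gene symbol (39.4% of the values were not whole), which were rounded here, where raw counts had been assumed. The authors also deposited a normalized signal for 32828 genes, made by scaling counts with a factor per gene and library, as the deposited values show; it was used only in alternatives.

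Genes were filtered with filterByExpr over the 4 groups and scaled with TMM. All 12 libraries entered 1 edgeR quasi-likelihood model (edgeR 4.0.16, R 4.3.3) with a term per group, with Benjamini-Hochberg adjustment across the 21698 genes and a threshold of 0.05. SE is the absolute log2 fold change over the square root of F. Intervals are 95%, by edgeR's total degrees of freedom (residual plus prior). The fit was tested on simulated counts with the same setting of spread for every gene and changes in the wild-type JQ1 group only. No simulated library stood apart, so that test does not show how the fit performs on these data. Alternatives used DESeq2 1.42.0, limma 3.58.1 (pseudocount 1), other scalings and filters, a replicate block and fits without each library. Length scaling used the median GENCODE 29 basic coding transcript. Named genes were the 10 members, MAPKAPK2, up to 3 of smallest adjusted p per list and comparison, and the 2 of closest pattern per member; 1 gene that this rule names is not reported here. The members and lists were chosen with earlier results of these data known. Protein sequences were not used here.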

Additional observations from a re-analysis of the deposited data

How the results depend on the processing

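Over 50 gene and comparison results and up to 23 alternatives each, 1076 of 1140 values kept their direction and their side of the threshold, 13 lost the call, 17 gained it and 34 changed sign, all 34 in results that had not passed. The count of S100 genes called stayed at 7 for JQ1 in knockout with any library left out and ran from 7 to 8 in wild type, from 3 to 6 for the knockout in DMSO and from 2 to 4 under JQ1, and was 0 for the interaction. Under JQ1 the knockout count of 4 was 2 with only the groups compared and 2 at an adjusted p of 0.01. With the replicate number as a block, the counts were 7, 7, 4, 4 and 0, and all 50 results kept their call. None of 18 correlations between same-numbered libraries' deviations exceeded 0.1 (highest 0.0786), and 2 of 12 libraries correlated best with their own number. These values gave no sign of pairing by number. Genes of few counts weighed as much as others in them, so pairing is not excluded.

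Sign changes were near 0. For S100A11 with JQ1 in wild type they were 0.0054 with DESeq2 size factors, 0.0037 with the authors' factors, 0.0054 with DESeq2, 0.0036 without a low-count filter and 0.010 with only the groups compared, and -0.094 to 0.058 with a library left out. For the S100A3 interaction they were -0.0060, -0.075, -0.0055 and -0.014 under the first 4 of these and -0.078 with limma, and -0.040 to 0.071 with a library left out. With library totals only, the knockout effect was -0.018 for S100A6 and -0.033 for S100A13 in DMSO, and -0.018 for S100A10 under JQ1, which was -3.29e-05 without a filter. Leaving out a library gave -0.042 to 0.074 for S100A13 in DMSO, -0.069 to 0.088 for S100A10 under JQ1, and interactions of -0.22 to 0.038 for S100A1, -0.14 to 0.0073 for S100A11 and -0.082 to 0.010 for S100B. Over all genes, the knockout calls in DMSO were 1718, 2619 with only the groups compared, 926 at 0.01 and 1092 to 2650 with a library left out; under JQ1 they were 1860, 922, 965 and 1223 to 2331. JQ1 calls in wild type fell from 7187 to 4781 at 0.01. Interaction calls were 29, 139 with DESeq2, 236 without a filter, 6 at 0.01 and 8 to 88 with a library left out. S100A2 and S100A3 had the fewest counts of the 10 genes (107 to 335 per library).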
